A study of Homo sapiens with 28 samples.

Results

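FOXF1 binding in senescent and in proliferating IMR-90 ER:Ras fibroblasts was described from 4 CUT&RUN peak lists, 2 from senescent (Sen) and 2 from proliferating (Pro) cells, of 28 lists in the series. Peaks on chromosomes 1 to 22 and X were joined into 45464 regions wherever peaks of different libraries shared at least 1 bp. A region with a peak in both Sen lists and in neither Pro list was called gained, which held for 5948 regions, or 13.1% of all. A region with a peak in both Pro lists and in neither Sen list was called lost, which held for 159 regions, or 0.35% of all. A region with a peak in all 4 lists was called kept, which held for 2047 regions, or 4.5% of all. The classes were set by presence in these lists, so the counts are a description and carry no test.

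FOXF1 is a forkhead transcription factor that is needed for the mesenchyme of the developing lung and is expressed in lung fibroblasts. Oncogene-induced senescence is a lasting arrest of the cell cycle that follows strong Ras signalling, and it comes with a rebuilt set of active enhancers. AP-1 factors, dimers of JUN and FOS family proteins, bind many of those enhancers, and acetylation of histone H3 at lysine 27 (H3K27ac) marks enhancers and promoters that are active. CUT&RUN uses an antibody to bring a nuclease to a bound protein, and the nuclease releases the DNA around it for sequencing.

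IMR-90 is a line of human fetal lung fibroblasts, and ER:Ras is a Ras oncoprotein that 4-hydroxytamoxifen switches on. Per the labels' protocols, senescence was induced with 100 nM 4-hydroxytamoxifen for 6 days. The Pro samples were told apart by their titles only, because their tags give the same control siRNA, the same 4-hydroxytamoxifen treatment and the same senescent cell type as the Sen samples. All samples came from this 1 engineered line, no RNA was measured and no gene annotation of the files' build (hg19) was at hand, so neither the cell type nor the senescent state was checked against marker genes and nearby genes were not named. In the same series the antibodies against phosphorylated c-JUN (p-c-JUN), the activated form of an AP-1 subunit, and against H3K27ac were used on the same states. Senescent cells given siRNA against FOXF1 and FOXF2 (siFOXF1/2) were used here to describe the FOXF1 regions further. So were senescent cells with c-JUN and JUND knocked down, called JUN knockdown below.

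The FOXF1 lists were far from equal in length. Sen replicates 1 and 2 held 13603 and 40537 peaks, and Pro replicates 1 and 2 held 3441 and 11061. Both Sen lists were longer than both Pro lists, but Sen replicate 1 stood nearer to Pro replicate 2 than to Sen replicate 2. Peak number was 1.93 ± 1.15 higher in Sen cells on the log2 scale (SE, 2 libraries against 2; exact permutation test, p = 0.33), and from 1.09 to 2.77 higher with 1 library left out. All permutation tests given here were two-sided, and with 4 libraries in 6 arrangements a p of 0.33 is the lowest possible, so no comparison of 2 against 2 libraries could pass 0.05. The labels do not say whether the replicates are separate cultures, so each p reflects library-to-library spread that may be technical. In bulk chromatin, binding in more cells and more binding per cell cannot be told apart.

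Read depth was not given in the sources used here. The number of fragments at each summit was solved from the deposited fold and −log10 p, and its median was 10 and 11 fragments in the Sen lists, against 12 and 10 in the Pro lists. The background of fragments per kb estimated from the lists was 2.44 and 2.70 in Sen libraries, against 3.21 and 2.73 in Pro libraries. The Sen lists, though longer, did not have the higher estimated background. Together the peaks covered 4.53 and 16.0 Mb in Sen libraries, against 1.18 and 3.71 Mb in Pro libraries.

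Of the 11300 regions that both Sen libraries held, 5948 (52.6%) had no peak in either Pro library, 3305 (29.2%) had a peak in exactly 1 Pro library and 2047 (18.1%) had one in both. The regions found in exactly 1 Pro library were nearly all in the longer Pro list, with 191 in Pro replicate 1 and 3114 in Pro replicate 2. Most regions of the whole set, 25830 or 56.8%, had a peak in Sen replicate 2 alone. Of the 2722 regions that both Pro libraries held, 159 (5.84%) had no Sen peak and 516 had a peak in exactly 1 Sen library, of which 482 were in Sen replicate 2. Regions held by 1 library of a state were thus mostly those of its longer list. Without Sen replicate 1 there were 31811 gained regions and without Pro replicate 2 there were 9056, while lost regions numbered 2470 without Pro replicate 1, 634 without Sen replicate 2 and 440 without Pro replicate 2, and kept regions numbered 5161 without Pro replicate 1.

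**Figure D1:**
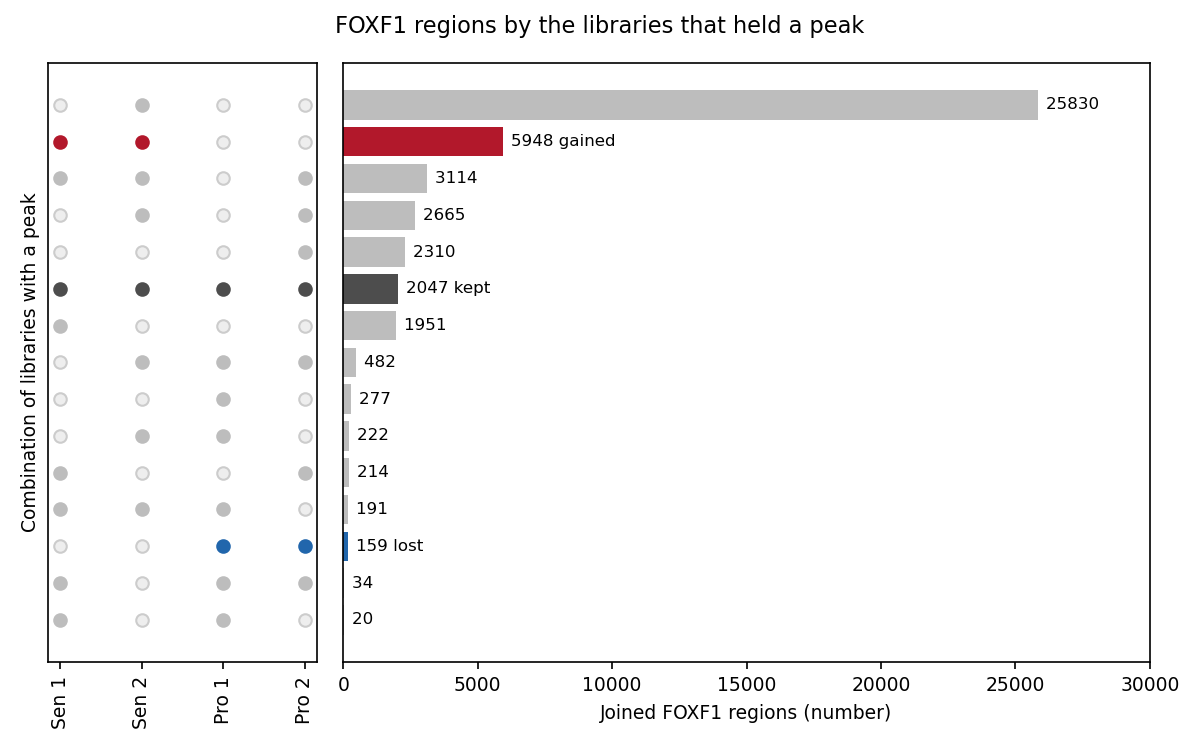
Number of joined FOXF1 regions (horizontal axis, regions) for each combination of the 4 libraries that held a peak (filled circles, Sen left of Pro). Regions in Sen replicate 2 alone form the longest bar (25830), followed by the 5948 gained regions, while the 2047 kept and 159 lost regions are far fewer.

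Gained regions were weaker FOXF1 sites than kept ones in the same Sen lists. Ranked by −log10 q, where a low percentage is near the top of a list, the median gained region stood at 54.1% of the list of Sen replicate 1 and at 27.0% of that of Sen replicate 2. The median kept region stood at 19.2% and 8.10% of those lists. At their summits gained regions had a median of 9 and 15 fragments, and kept regions 15 and 25. Lost regions stood at 56.4% and 45.6% of the Pro lists, where kept regions stood at 36.3% and 13.8%.

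Presence in Pro cells went with strength in Sen cells. The 11300 regions of both Sen libraries were put in 10 equal groups by their worse rank in the Sen lists. In the strongest group, 53.3% had a peak in Pro replicate 1, 78.2% in Pro replicate 2 and 20.4% in neither. In the weakest group, 6.55% had a peak in Pro replicate 1, 26.7% in Pro replicate 2 and 72.2% in neither. Gained regions were therefore a minority among the strongest Sen sites and the larger part of the weak ones, although 231 of them stood in the strongest group.

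**Figure D2:**
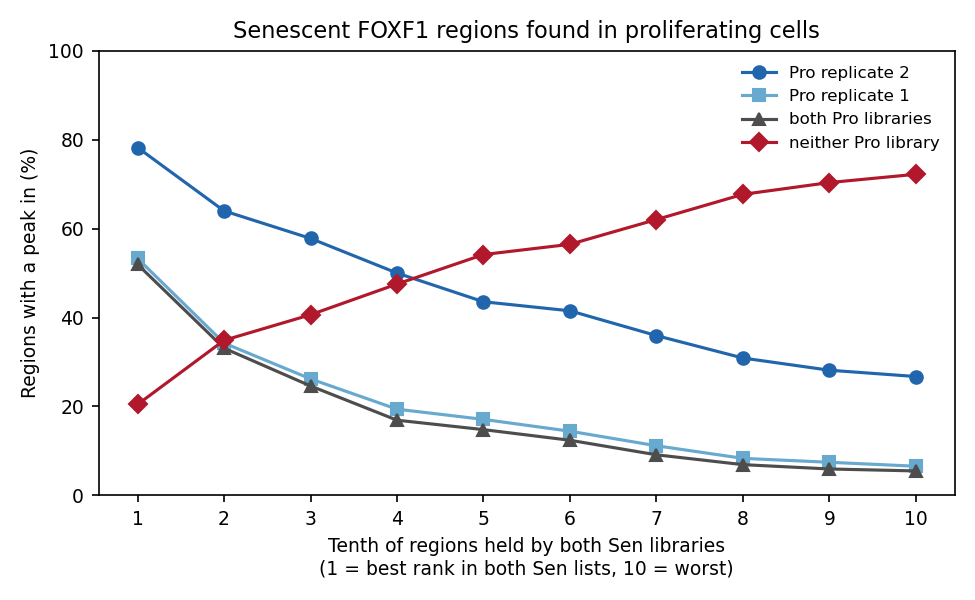
Share of FOXF1 regions of both Sen libraries (vertical axis, percent) that also had a peak in a Pro library, by strength in the Sen lists (horizontal axis, 10 equal groups, strongest first). The share found in neither Pro library climbs to 72.2% in the weakest group, against 20.4% in the strongest, while both Pro libraries decline.

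Kept regions were also the widest. The joined region had a median width of 482 bp (quartiles 364 and 609) for gained, 651 bp (531 and 786) for kept and 390 bp (304.5 and 486) for lost regions. Kept regions join 4 peaks and the others 2, so width was also read within single lists. In Sen replicate 1 the median peak was 272 bp wide at gained and 405 bp at kept regions, and in Sen replicate 2 it was 443 and 586 bp. Over whole lists the median width was 285 and 343 bp in Sen libraries, against 296 and 284 bp in Pro libraries. That difference of 24 bp was smaller than its error (SE 29.6, 2 libraries against 2; exact permutation test, p = 0.667) and its sign turned without Sen replicate 2, to −5 bp.

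The strongest gained regions, chosen by their worse rank in the 2 Sen lists, were as strong as many kept sites. The first lay at chr5:147751937-147752375, 439 bp long, with a fold enrichment over local background of 16.7 and 19.0 and 42 and 68 fragments at its summit in Sen replicates 1 and 2. The region at chr3:59489666-59490423 had 43 and 72 fragments, and that at chr5:51957672-51958269 had 37 and 75. Further regions in this set lay at chr2:180167672-180168466, with folds of 13.3 and 16.4, at chr1:33232702-33233416, with 12.9 and 16.2, and at chr20:10244146-10244607, with 14.4 and 20.1. None of the 10 leading regions had a p-c-JUN peak in either Pro library, while all 10 had one in at least 1 Sen library and 7 had one in both. H3K27ac was less clear-cut there, since all 10 had a peak in at least 1 of Sen replicates 1 and 2 and 7 had one in at least 1 Pro library.

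The 10 leading lost regions, out of 159, stood lower in the Pro lists than the 10 leading gained regions, out of 5948, in the Sen lists. Over whole classes the median fold was 5.33 and 5.72 for lost regions in the Pro lists. For gained regions in the Sen lists it was 5.38 and 6.22, and folds of different lists were not normalised to each other. The first lost region by the same rule lay at chr18:72271898-72272457, with a fold of 8.51 and 14.1 and 18 and 37 fragments in Pro replicates 1 and 2. It had no p-c-JUN peak in any of the 4 lists and no H3K27ac peak in Sen replicates 1 and 2, while both Pro libraries held an H3K27ac peak. The region at chr14:31046501-31046796, with folds of 7.45 and 10.1, showed the same pattern of marks. The region at chr9:106837069-106837718, with folds of 7.60 and 9.41, had p-c-JUN in both Pro lists and in neither Sen list, with H3K27ac in all 4. The last of the 10 lost regions already stood at rank 1469 in 1 of its lists, against rank 170 for the last of the 10 gained regions.

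The leading kept regions were mostly regions that also had a FOXF1 peak after FOXF1 and FOXF2 were knocked down. Of the 10 first by rank, 9 had a peak in both siFOXF1/2 lists, led by chr1:121484201-121485430 with folds of 16.5 and 15.7 in Sen lists and 15.5 and 17.4 in Pro lists. Peaks of the other antibodies stood there too: all 10 had p-c-JUN in both lists of each state. H3K27ac stood in both Sen lists at 8 and in both Pro lists at 9, and 9 had a peak in both FOXF1 lists after JUN knockdown. Most of these 10 regions thus had peaks with all 3 antibodies, and whether the signal there is FOXF1 binding was not tested. The FOXF1 lists after siFOXF1/2 were short, with 186 and 133 peaks, of which 47.8% and 55.6% overlapped kept regions. Over all joined regions 116 (0.255%) had a peak in a siFOXF1/2 list. Of the 2047 kept regions 60 (2.93%) had one, against 3 gained regions and 1 lost region. Of these 60, 41 (68.3%) lay at most 2 Mb from the longest gap of their chromosome in which none of the 28 lists had a peak, against 1.36% of the other kept regions and 1.29% of the gained ones. Without every region that had such a peak, 5945 gained, 1987 kept and 158 lost regions were left.

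Kept regions without a peak after the knockdown were led by chr13:98953591-98954234. Its fold was 21.0 and 22.5 in Sen replicates 1 and 2, against 17.5 and 18.1 in Pro replicates 1 and 2. The next stood at chr13:50432431-50433074, with 19.7 and 20.4 in Sen lists and 21.5 and 19.3 in Pro lists, and at chr14:55618972-55619526, with 19.2 and 21.8 in Sen lists and 15.0 and 18.3 in Pro lists. These are descriptions within each list, and folds of different lists were not normalised to each other. All of the first 10 had p-c-JUN in both Sen lists and in at least 1 Pro list, and H3K27ac in at least 1 list of each state.

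Gained and kept regions were found on all 23 chromosomes, and their proportion was similar on most. There were 2.91 gained regions for each kept one in all, and from 2.32 to 3.61 on 21 of the 23 chromosomes. On chromosome 19 there were 1.26, from 68 gained and 54 kept regions, and on chromosome X there were 8.00, from 80 and 10. Lost regions were on none of chromosomes 19, 20 and X. Gained regions stood at a median of 1.97 per Mb over the 23 chromosomes, from 0.515 to 2.62, and kept regions at 0.684 per Mb, from 0.0644 to 0.914. Chromosome X was lowest in both and chromosome 19 was highest for kept regions.

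The share of a list on chromosome 19 was 1.82% and 1.71% in Sen lists, against 2.21% and 2.36% in Pro lists. These groups did not overlap, with a difference of −0.519 ± 0.0909 percentage points (SE, 2 libraries against 2; exact permutation test, p = 0.33), and at 3441 peaks a list the shares were 1.42% in both Sen lists, against 2.21% and 2.44% in Pro lists. The share on chromosome X was 1.23% and 1.75% in Sen lists, against 0.814% and 1.10% in Pro lists. At 3441 peaks a list it was 0.756% and 0.610% in Sen lists, against 0.814% and 0.756% in Pro lists, so the higher share in Sen cells did not hold at equal length. Counts on X were then 26 and 21 peaks in Sen lists and 28 and 26 in Pro lists.

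Gained regions, the larger class, stood closer together than kept ones; spacing at equal class size was not tested. The nearest region of the same class lay at a median of 79.6 kb for gained, 248 kb for kept and 5751 kb for lost regions. Clusters of 3 or more gained regions with gaps of at most 50 kb held 804 regions (13.5%), and at most 12500 bp they held 54 (0.908%). For kept regions the same clusters held 81 (3.96%) and 16 (0.782%). Of 234 clusters of gained regions at 50 kb, 26 had 5 or more members and 7 of these 26 had a kept region inside.

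The largest clusters had 7 gained regions each. The first spanned 105 kb at chr6:139540279-139645448, with folds from 4.13 to 8.31 in Sen replicate 1 and from 4.42 to 9.79 in Sen replicate 2. Of its 7 regions 5 had p-c-JUN in both Sen lists and none had it in both Pro lists, while H3K27ac stood in both Sen lists at 6 regions and in both Pro lists at 6. The second spanned 160 kb at chr5:142934483-143094698 with 1 kept region inside, and 6 of its 7 regions had p-c-JUN in both Sen lists, against 2 in both Pro lists. A cluster of 6 at chr7:114514248-114629995 held stronger sites, with folds up to 13.3 in both Sen lists, and p-c-JUN stood in both Sen lists at 3 regions and in both Pro lists at none.

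Clustering within single lists followed their length. Peaks in clusters of 3 or more at gaps of at most 12500 bp made up 5.68% and 22.1% of the Sen lists, against 2.12% and 4.25% of the Pro lists, a difference of 10.7 ± 8.29 percentage points (SE, 2 libraries against 2; exact permutation test, p = 0.33). At 3441 peaks a list they made up 1.28% and 0.639% of the Sen lists, against 2.12% and 1.37% of the Pro lists, so the direction turned. Gained regions were not confined to the surroundings of kept ones: the nearest kept region lay at a median of 298 kb for gained, 237 kb for lost and 340 kb for regions in Sen replicate 2 alone, and 14.4% of gained regions had one within 50 kb.

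In bins of 1 Mb, 1921 of 3047 (63.0%) held a gained region and 1201 a kept one. The bin at chr14:59000001-60000000 held most gained regions, 15 beside 2 kept ones, and the bin at chr11:102000001-103000000 held 12 beside none. Of 418 bins with 5 or more gained regions, 104 held no kept region. Across bins the numbers of gained and kept regions had a Pearson r of 0.413 and a Spearman rho of 0.452, given as a description because both classes come from the same Sen lists and share chromosome features such as mappable length.

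In the lists as deposited, phosphorylated c-JUN was present at more FOXF1 regions in senescent than in proliferating cells, gained regions included. The Sen p-c-JUN lists were also the longer ones. Over all 45464 joined regions, 57.9% and 67.5% had a peak in p-c-JUN Sen replicates 1 and 2, against 29.9% and 36.0% in Pro replicates 1 and 2, a difference of 29.8 ± 5.68 percentage points (SE, 2 libraries against 2). Of the 5948 gained regions, 69.4% and 79.6% had a peak in p-c-JUN Sen replicates 1 and 2, against 29.4% and 36.9% in Pro replicates 1 and 2. The groups did not overlap and differed by 41.3 ± 6.34 percentage points (SE, 2 libraries against 2; exact permutation test, p = 0.33). The Pro shares at gained regions were thus close to those over all regions, and the Sen shares were above them. Of all joined regions, however, 56.8% had a FOXF1 peak in Sen replicate 2 alone. Over the 11300 regions held by both Sen libraries, the gained ones among them, p-c-JUN shares were 76.3% and 84.8% in Sen lists. In Pro lists they were 45.5% and 53.3%. Gained regions were below these shares in both states. At kept regions the shares were 88.7% and 93.2% in Sen lists, against 75.04% and 80.8% in Pro lists, a difference of 13.0 ± 3.64 points (exact permutation test, p = 0.33). At lost regions they were 52.2% and 46.5% in Sen lists, with 95% Wilson intervals of 44.5 to 59.8 and 39.0 to 54.3, against 55.3% and 61.0% in Pro lists, with intervals of 47.6 to 62.9 and 53.3 to 68.2. The difference at lost regions was −8.81 ± 4.00 points (exact permutation test, p = 0.33) and turned to 2.37 when the regions were called without FOXF1 Sen replicate 2, to 6.86 without FOXF1 Pro replicate 1 and to 4.02 with FOXF1 lists of equal length.

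The p-c-JUN lists themselves were longer in Sen cells, with 70177 and 93443 peaks against 24808 and 32136 in Pro cells, so the classes were also set against each other within each list. The share at gained regions divided by that at kept regions was 0.782 and 0.854 in Sen lists, against 0.392 and 0.457 in Pro lists, a difference of 0.394 ± 0.0486 (SE, 2 libraries against 2; exact permutation test, p = 0.33). With all 4 p-c-JUN lists at their best 24808 peaks, the share at gained regions was 39.5% and 40.7% in Sen lists, against 29.4% and 31.0% in Pro lists. At kept regions it was then 61.5% and 60.5% in Sen lists, against 75.04% in both Pro lists, and at lost regions 23.9% and 18.9%, against 55.3% and 52.2%. At equal length gained regions thus remained higher in Sen cells by 9.90 points while kept regions turned round and were lower by 14.0 points.

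**Figure D3:**
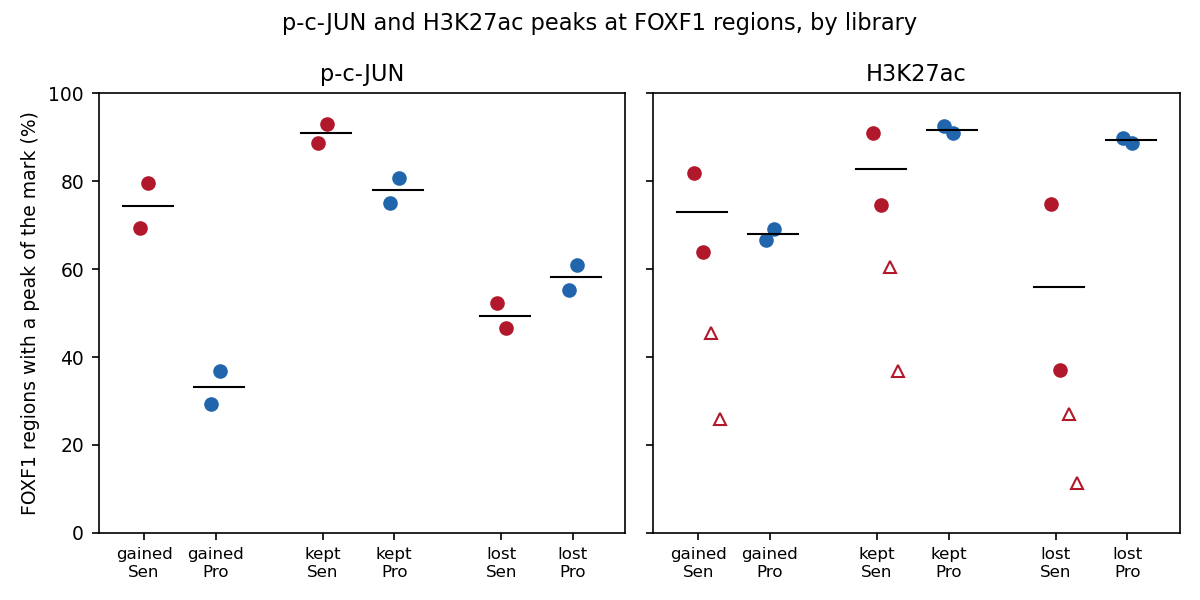
Share of gained, kept and lost FOXF1 regions (vertical axis, percent) that overlapped a peak of p-c-JUN (left panel) or H3K27ac (right panel), 1 point per library, Sen red and Pro blue, with bars at the mean of replicates 1 and 2; triangles are H3K27ac Sen replicates 3 and 4. At gained regions the p-c-JUN points of Sen cells (69.4% and 79.6%) stand apart from those of Pro cells (29.4% and 36.9%), while the H3K27ac points overlap in these lists, which differ in length.

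H3K27ac at gained regions overlapped between the states in the lists as deposited, and the result depended on list length. A peak was present at 81.8% and 64.0% of gained regions in H3K27ac Sen replicates 1 and 2, against 66.7% and 69.2% in Pro replicates 1 and 2. The Pro values lay between those of the Sen libraries, with a difference of 4.98 ± 9.00 percentage points (SE, 2 libraries against 2; exact permutation test, p = 1). Sen replicates 3 and 4, which came with a later deposit and had shorter lists of 48859 and 26694 peaks, gave 45.4% and 25.8%, and with all 4 Sen libraries the difference was −13.7 ± 12.1 points (n = 4 and 2; exact permutation test, p = 0.533). Without H3K27ac Sen replicate 1 it was −3.94 points. With the lists of replicates 1 and 2 at their best 60862 peaks, the shares were 73.6% and 64.0% in Sen lists, against 57.3% and 57.8% in Pro lists, which did not overlap and differed by 11.2 points (exact permutation test, p = 0.33). With all 4 Sen libraries at equal length the difference was 3.48 points (exact permutation test, p = 0.667). Most gained regions had an H3K27ac peak in each Pro library, where FOXF1 had none, at shares not far above those over all joined regions. These shares were below the 78.1% and 78.9% of the regions held by both Sen FOXF1 libraries. Over all joined regions the shares were 69.5% and 52.0% in Sen replicates 1 and 2, against 62.6% and 64.2% in Pro libraries. The difference there was −2.60 ± 8.78 points (SE).

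Lost regions had less H3K27ac in Sen cells. A peak was present at 74.8% and 37.1% of the 159 lost regions in Sen replicates 1 and 2, with 27.0% and 11.3% in Sen replicates 3 and 4, against 89.9% and 88.7% in Pro libraries. Kept regions had 91.0%, 74.6%, 60.6% and 36.7% in the 4 Sen libraries, against 92.6% and 91.0% in Pro libraries. Divided by the share at kept regions of the same library, the share at lost regions averaged 0.519 ± 0.218 in Sen replicates 1 to 4 and 0.973 ± 0.00240 in 2 Pro libraries (SD). That ratio was below the Pro values in each of these 4 Sen libraries (exact permutation test, p = 0.0667, the smallest that 4 against 2 libraries allow). Among replicates 1 and 2 alone the ratio was 0.823 and 0.497 in Sen replicates 1 and 2, against 0.972 and 0.975 in Pro replicates 1 and 2 (exact permutation test, p = 0.33). A further pair of Sen libraries, the control of a p300 and CBP knockdown, had far shorter lists of 8234 and 2046 peaks, and a peak there was present at 5.66% and 0% of lost regions and at 12.0% and 4.05% of kept ones, ratios of 0.473 and 0. The count of 0 among 159 lost regions allows a share of up to 1.89%, by counting error only. With these libraries, added after the data were seen, the ratio was below the Pro values in 6 of 6 Sen libraries (exact permutation test, p = 0.0357, the smallest that 6 against 2 libraries allow). With the further pair the label and the list length moved together, since no Pro library had so short a list. These 6 Sen libraries were not compared at equal length. At the best 60862 peaks of replicates 1 and 2, lost regions had 60.4% and 37.1% in Sen lists, against 83.6% and 79.9% in Pro lists. That difference was −33.0 points, against −33.3 as deposited. With all 4 Sen libraries at equal length it was −38.1 points (exact permutation test, p = 0.0667). At kept regions the differences at equal length were −6.47 and −12.3 points. For gained regions the share divided by that at kept regions was 0.900, 0.858, 0.750 and 0.702 in Sen libraries, against 0.721 and 0.761 in Pro libraries, and these overlapped (exact permutation test, p = 0.533). It was 0.681 and 0.435 in the further pair of Sen libraries, where 8.15% and 1.77% of gained regions had a peak.

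H3K27ac was also read over whole FOXF1 lists, in place of classes. Regions with H3K27ac in both libraries of the same state numbered 45257 in Sen and 63441 in Pro cells, and sets of equal size were not tested. They overlapped 64.2% and 53.7% of the Sen FOXF1 peaks, against 85.5% and 83.0% of the Pro peaks. The difference of −25.3 ± 5.41 percentage points exceeded the spread of both groups (SE, 2 libraries against 2; exact permutation test, p = 0.33). It was −13.8 points with FOXF1 lists of equal length and −11.9 where a peak in either H3K27ac library was enough. Where all 4 Sen libraries were required, a stricter rule for Sen than for Pro cells, it was −57.0. Regions with p-c-JUN in both libraries of the same state numbered 59367 in Sen and 20315 in Pro cells. They covered part of 68.3% and 57.5% of the Sen FOXF1 peaks, against 62.7% and 49.97% of the Pro peaks, and these values overlapped (exact permutation test, p = 0.667). With FOXF1 lists of equal length the Sen lists were 17.8 points higher and the groups did not overlap (exact permutation test, p = 0.33).

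Gained and kept regions of the same group by worse Sen rank still differed in their marks. Strength was not compared between the classes within a group. In each of the 10 groups by strength in the Sen lists, p-c-JUN was present in both Pro libraries at 18.6% to 27.9% of gained regions, against 65.4% to 80.6% of kept regions. In both Sen libraries it was present at 58.9% to 76.9% of gained regions, against 78.2% to 92.2% of kept ones. H3K27ac was present in both Pro libraries at 54.5% to 65.1% of gained regions, against 80.6% to 94.2% of kept ones, and in both Sen libraries (replicates 1 and 2) at 56.9% to 66.2%, against 62.9% to 77.8%. The gap was thus widest for p-c-JUN in proliferating cells, and the 231 strongest gained regions had the lowest share there, 18.6%, beside 75.3% in Sen cells. Width also differed within these groups, with medians of 461 to 539 bp for gained and 569.5 to 688 bp for kept regions. Marks were overlapped with the joined region, so kept regions were also the wider targets.

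**Figure D4:**
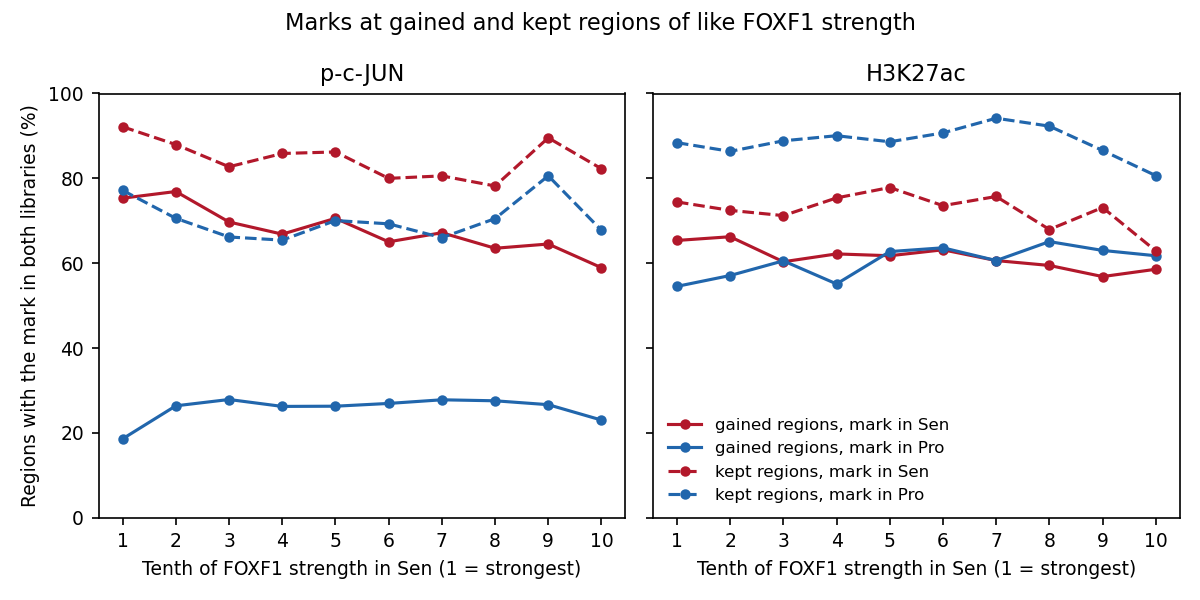
Share of gained (solid) and kept (dashed) FOXF1 regions with the mark in both Sen (red) or both Pro (blue) libraries (vertical axis, percent), by FOXF1 strength in the Sen lists (horizontal axis, 10 groups, strongest first). In every group p-c-JUN of Pro cells lies between 18.6% and 27.9% at gained and between 65.4% and 80.6% at kept regions.

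Single regions fell into a few combinations of marks. Of the gained regions, 1695 (28.5%) had p-c-JUN in both Sen lists and in neither Pro list, against 2 with the opposite pattern, while 1534 (25.8%) had p-c-JUN in all 4 lists and 1022 (17.2%) in none. Over all joined regions these shares were 19.2% in both Sen lists alone, 25.5% in all 4 and 27.8% in none, so p-c-JUN in all 4 lists was about as frequent at gained regions as over all. Of the kept regions 152 (7.43%) had p-c-JUN in both Sen lists alone, 1418 (69.3%) in all 4 and 71 (3.47%) in none. H3K27ac in all 4 lists was found at 2772 gained (46.6%) and 1446 kept regions (70.6%), and in both Sen lists alone at 443 (7.45%) and 9 (0.440%). Over all joined regions H3K27ac stood in all 4 lists at 39.4% and in both Sen lists alone at 4.56%. Both marks stood in all 8 lists at 18.2% of gained, 50.6% of kept and 17.6% of lost regions, against 16.8% of all joined regions.

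FOXF1 sites without either mark were few in these classes. They numbered 264 gained regions (4.44%), 3 kept regions (0.147%) and 5 lost regions (3.14%), against 4248 (16.4%) of the regions with a peak in Sen replicate 2 alone and 11.9% of all joined regions. Of the lost regions, 44 (27.7%) had no p-c-JUN peak in any list, about the 27.8% of all joined regions, and 23 (14.5%) had H3K27ac in both Pro lists and in neither Sen list, against 4.22% of all. None had H3K27ac in both Sen lists alone.

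Many FOXF1 regions of each class had a p-c-JUN summit within 200 bp, and no share or distance expected from peak overlap alone was computed. In Sen cells 52.6% to 61.4% of gained regions had a p-c-JUN summit within 200 bp of the FOXF1 summit, over the 4 pairs of a FOXF1 and a p-c-JUN library, and 68.3% to 71.9% of kept regions did. Among those within 200 bp, a limit that itself bounds the median, the median distance was 55 to 64 bp at gained and 49 to 58 bp at kept regions. With p-c-JUN of Pro cells 21.1% to 27.5% of gained regions and 58.2% to 62.8% of kept regions had such a summit. At lost regions, read from FOXF1 summits of Pro cells, 41.5% to 49.7% had a p-c-JUN summit of Pro cells within 200 bp. For p-c-JUN of Sen cells it was 34.6% to 39.0%. FOXF1 summits of Sen replicates 1 and 2 themselves lay a median of 66 bp apart at gained and 50 bp at kept regions, and those of the Pro replicates 80 bp apart at lost regions. Over all regions of a class, a p-c-JUN summit of Sen cells lay within 50 bp of the FOXF1 summit at 23.5% to 25.9% of gained and 31.4% to 35.2% of kept regions, while the FOXF1 summits of the Sen replicates lay within 50 bp of each other at 41.4% of gained and 50.02% of kept regions.

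**Figure D5:**
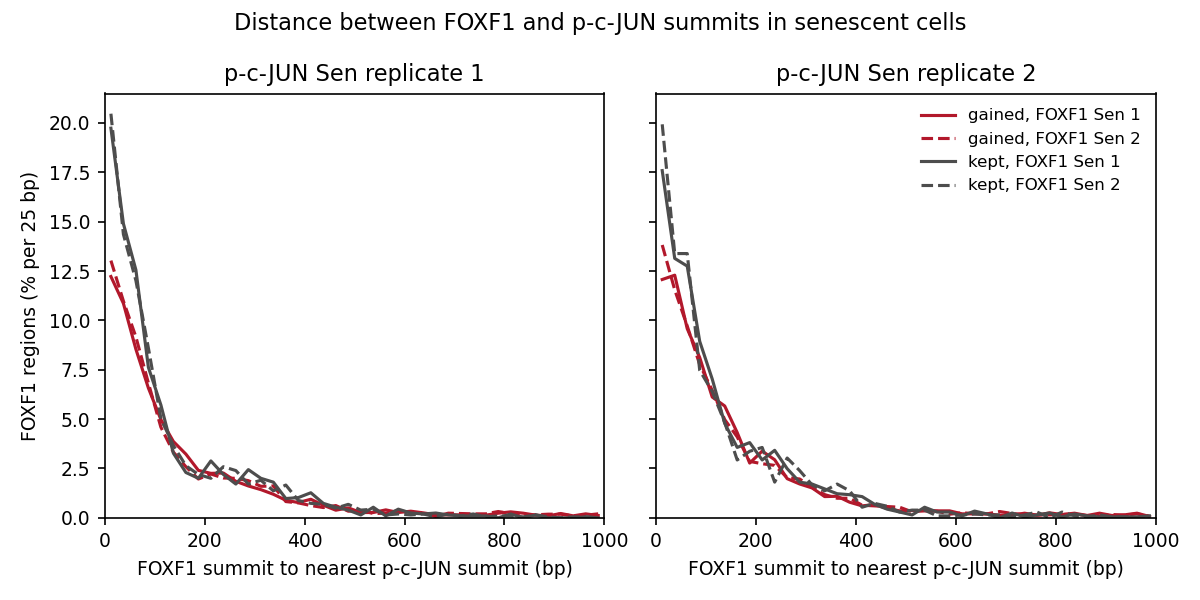
Share of FOXF1 regions (vertical axis, percent per 25 bp) by distance from the FOXF1 summit to the nearest p-c-JUN summit of Sen cells (horizontal axis, bp), for gained (red) and kept (dark) regions, with 1 line per FOXF1 Sen library and 1 panel per p-c-JUN Sen library. Both classes are highest in the first 50 bp and decline until about 500 bp; for Sen replicate 1 of both proteins the gained regions stand at 2.25% at 200 bp and 0.269% at 500 bp.

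In senescent cells given siFOXF1/2, fewer gained regions had p-c-JUN than in Sen cells given the control siRNA. The shares were 56.8% and 64.1% after siFOXF1/2, against 69.4% and 79.6% in Sen cells, a difference of −14.0 ± 6.29 percentage points (SE, 2 libraries against 2; exact permutation test, p = 0.33). At kept regions they were 79.6% and 86.8% after siFOXF1/2, against 88.7% and 93.2% in Sen cells, a difference of −7.74 ± 4.24 points (exact permutation test, p = 0.33). At lost regions they were 51.6% and 54.1% after siFOXF1/2, against 52.2% and 46.5% in Sen cells. Over all joined regions they were 51.1% and 57.4% after siFOXF1/2, against 57.9% and 67.5% in Sen cells, a difference of −8.38 ± 5.74 points. The p-c-JUN lists after siFOXF1/2 were of like length, 75005 and 86110 peaks. These comparisons share the Sen p-c-JUN libraries with those of Sen against Pro cells, and whether the classes differed in their change was not tested.

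H3K27ac at gained regions was 66.2% and 60.3% after siFOXF1/2, against 81.8% and 64.0% in Sen cells, and the difference of −9.68 ± 9.41 percentage points was about as large as its error (exact permutation test, p = 0.667, 2 libraries against 2). Over all joined regions the difference was −3.94 ± 9.47 points (SE). FOXF1 lists after JUN knockdown were short, with 378 and 883 peaks. They held 111 and 121 of the 2047 kept regions (5.42% and 5.91%), against 17 and 35 of the 5948 gained ones (0.286% and 0.588%). Over all joined regions they held 253 and 531 (0.556% and 1.17%). These libraries came with the later deposit, so the knockdown and the deposit cannot be told apart.

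With all 4 FOXF1 lists limited to their 3441 best peaks, the classes numbered 864 gained, 773 kept and 635 lost regions. Those 864 gained regions were absent from the full list of Pro replicate 1, which is that list unchanged, while 34.5% had a peak in the full list of Pro replicate 2. Of the 635 lost regions, 61.4% and 89.6% had a peak in the full lists of Sen replicates 1 and 2. Most of the regions lost at equal length were therefore lower in rank in Sen cells rather than without a peak. At these 864 gained regions p-c-JUN was present at 81.1% and 87.3% in Sen lists, against 33.2% and 41.0% in Pro lists.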

How the data were processed

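One peak list per library was deposited, with none pooled. Per the submitters' processing notes, the build was hg19 and the tools were MACS2 3.0.0, Bowtie2 2.3.4.1, deepTools 3.1.1 and SAMtools 1.9; no parameters are listed. The sources used here name no control library and do not say whether the yeast spike-in was used to scale values. Each deposited peak has a score, a fold enrichment at the summit (a ratio to local background), and −log10 p and −log10 q values. They are the authors' own and served only to rank, filter and describe the peaks of 1 list.

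Peaks off chromosomes 1 to 22 and X (15 to 19 a list) were left out. Summit fragments were solved from the fold and −log10 p as a Poisson tail, which came out whole (tolerance 0.0005) for 100% of the peaks tried, those below a −log10 p of 100. The background is the 0.1% quantile of the solved local background divided by the narrowest peak; it rests on no read counts. Overlap of 1 bp counted as shared. Coordinates are hg19, counted from 1. Regions named are the 10 of each class whose worse rank by −log10 q, among lists with a peak there, was best. Kept regions without a siFOXF1/2 peak, and the bins and clusters named, were chosen after their values were seen. Tests were exact two-sided permutations over libraries, in Python 3.11.15 with NumPy 2.4.6, pandas 2.3.3 and SciPy 1.17.1. The code was tested on simulated lists. Wilson intervals cover counting error only. Regions and lists were chosen with earlier results of these data known.

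Nothing in the labels pairs replicates of the same number. Alternatives were lists of equal length, a stricter limit (−log10 q at least 5), a stricter overlap (50% of the shorter peak), each replicate left out, a replicate block, other gaps and other mark rules. The equal-length mark lists, the gap of 50 kb, all alternatives of the shares by class, by chromosome X and by chromosome 19, the use of all 6 Sen H3K27ac libraries and the removal of regions held after siFOXF1/2 were chosen after seeing the data. Nearby genes, promoter distance and motif shares were planned and not run.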

Additional observations from a re-analysis of the deposited data

How the results depend on the processing

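Keeping only peaks with −log10 q of at least 5 left 2884 gained and 1007 kept regions. With FOXF1 lists of equal length, gained, lost and kept regions numbered 864, 635 and 773. With 1 FOXF1 library left out, gained regions ranged from 6138 to 31811 (the highest without Sen replicate 1, and 9056 without Pro replicate 2), lost regions from 194 to 2470 (the highest without Pro replicate 1, 634 without Sen replicate 2 and 440 without Pro replicate 2) and kept regions from 2069 to 5161 (the highest without Pro replicate 1). A state with 1 list left needs only that list for presence.

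Directions turned for 6 results. Median peak width, Sen minus Pro, ranged from −5 to 53 bp with 1 library left out. At equal length the clustered share differed by −0.785 points and the share of peaks on chromosome X by −0.102 points. The p-c-JUN share at lost regions differed by 4.02 points with FOXF1 lists of equal length and, with 1 library left out, from −11.6 to 6.86 points, turning to 2.37 without Sen replicate 2 and 6.86 without Pro replicate 1. The p-c-JUN share at kept regions differed by −14.0 points with mark lists of equal length. The H3K27ac share at gained regions differed by −13.7 points with all 4 Sen libraries, −30.1 with all 6, 11.2 with mark lists of equal length and 3.48 with all 4 Sen libraries at equal length and, with 1 library left out, from −3.94 (without H3K27ac Sen replicate 1) to 13.9 points. At lost regions the H3K27ac difference of −33.3 points passed 0.05 with all 6 Sen libraries, at −63.3 points (exact permutation test, p = 0.0357, the smallest possible), of which the added pair had far shorter lists. The cause was not tested.

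With the replicate block, which takes differences within replicate numbers, peak number differed by 1.93 on the log2 scale (exact sign-flip permutation p = 0.5, the smallest that 2 pairs allow). With 2 libraries a group the mean of these differences equals the difference of the group means. No direction could therefore turn under the block. Of the values other than counts, 137 kept their direction, 42 of them moving by over 1.5 times, and 10 directions turned. The 137 include the values of the replicate block, which could not turn. Of the counts of regions, 11 moved by over 1.5 times and 13 did not. No test of 2 against 2 libraries could pass 0.05. All 10 named regions of each class stayed in it at the stricter limit, at 50% overlap, with FOXF1 lists of equal length and without each FOXF1 library, 21 counts in all. Leaving out a library could not remove a region from its class. The named regions also ranked within the 3441 best peaks of the lists that held them, so the equal-length outcome was set in advance too. Of the 10 kept ones, 9 were among the regions held after siFOXF1/2. Promoter share, forkhead and AP-1 motif shares and genes near gained regions were not run, because they need an hg19 genome and annotation. The unknown read depth and the 4 lists of unequal length limit every count of regions.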
